A study of Rattus norvegicus with 42 samples.

Results

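The narrow peaks are the TSS peaks that span at most 100 nt from first to last base. Cap analysis of gene expression (CAGE) sequences capped RNAs from their 5′ end, and every tag therefore marks the first base of a capped RNA, a CAGE tag start site (CTSS). Neighbouring CTSSs of a strand are joined into a peak. Of 9971 peaks in the deposited table, 2 were mitochondrial and were left out, and 1353 of the other 9969 (13.6%) met the width limit. The width was taken as deposited, and the limit itself makes no reference to level. The width is the span of CTSSs found in these same libraries, so width and level need not be independent, which was not tested. The libraries came from 21 mature Wistar rats, 3 in each of 7 phases, and the slow soleus and the fast extensor digitorum longus (EDL) of 1 side of every rat were sequenced, which gives 42 libraries in 14 groups. Control rats moved freely. In the unloading phases D1, D3 and D7 rats hung by the tail with their hindlimbs off the floor for 24 hours, 3 days or 7 days, and in the recovery phases R1, R3 and R7 they were let down after 7 days of unloading and moved freely for 24 hours, 3 days or 7 days. All libraries are of whole muscle, so fewer cells of a type and less RNA per cell cannot be told apart.

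RNA polymerase II begins transcription either at 1 or a few neighbouring bases, as is typical of promoters with a TATA box and of many tissue-specific genes, or over a wide stretch, as is typical of CpG island promoters of genes used by most cells. A narrow CAGE peak is usually read as a start of the first kind, and its sharpness is described by the share of tags at the strongest base, the summit. Capped 5′ ends are also detected inside exons of abundant transcripts, where they form small peaks next to each other. The positions below are on Rnor_6.0, and since no annotation of this build was used, peaks are named by position and strand and not by gene, and the muscle identity of the samples was not checked against marker genes.

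Libraries held 1778712 to 23103236 tags with a median of 9354058, and 473 to 1201 narrow peaks had at least 20 tags in a library. Mitochondrial positions took 3.2% to 10.7% of the tags. Replicate libraries of a group differed by more than counting error in all 42 pairs. All 6 control libraries were sequenced in lane 1 and all 6 R1 libraries in lane 4, so that lane moves with phase.

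Narrow peaks were 4 to 100 nt wide, with a median of 64 nt, against a median of 207 nt over all peaks. Of the 1353, 154 spanned at most 25 nt, 363 spanned 26 to 50 nt, 353 spanned 51 to 75 nt and 483 spanned 76 to 100 nt. The limit cuts through a continuous range of widths, with 16 peaks of exactly 100 nt and 29 that were 1 nt wider. Just inside it lay chr8:117268302-117268401 (+), with a mean of 38.7 CPM (counts of tags scaled to an equal library size with TMM) and 20.4% of its tags at the summit, and chrX:159514022-159514121 (+), with 10.2 CPM and 23.7%. Just outside lay chr1:100887807-100887907 (−), with 10.8 CPM and 30.6%, and chr1:265298854-265298954 (+), with 9.41 CPM and 13.3%. The peaks on either side of the limit thus overlapped in both values.

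Within a narrow peak the summit, the base with the most tags over all libraries after each was scaled to the same total, took a median of 40.1% of the tags. The central 50% of the narrow peaks, those between the 25th and the 75th percentile, ran from 25.6% to 62.2%. The median was 21.8% in the 7540 peaks over 100 and under 500 nt and 12.4% in the 1076 peaks of at least 500 nt. A peak with fewer positions leaves fewer places for tags, so a higher share goes in part with the width limit itself, and no test was made. Among the narrow peaks the median summit share was 68.5% at up to 25 nt, 51% at 26 to 50 nt, 35.1% at 51 to 75 nt and 31.1% at 76 to 100 nt. At least 50% of the tags were at 1 base in 496 narrow peaks (36.7%) and at least 90% in 71 (5.25%), against 755 and 23 peaks over 100 and under 500 nt. The stretch that holds the central 80% of the tags of a narrow peak was far shorter than its width, with a median of 12 nt against 52 nt in peaks over 100 and under 500 nt, and in 467 narrow peaks (34.5%) it was at most 5 nt.

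The strongest base of a single library was the summit in a median of 93.1% of the libraries with at least 20 tags of the narrow peak, against 82.9% over all peaks. The lower quartile of this percentage was 67.9% in narrow peaks and 59.5% over all peaks. It was the summit in every such library in 556 of the 1353 narrow peaks and in 2705 of all 9969. In a check of the tables, the summit found from the CTSS counts was the representative position deposited for the peak in 9969 of 9969 peaks.

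The median mean level of narrow peaks was 9.54 CPM, against 11.4 CPM over all peaks and 16.1 CPM in those of at least 500 nt, and 117 narrow peaks (8.65%) reached 100 CPM, against 7.56% of peaks over 100 and under 500 nt, 17.9% of those of at least 500 nt and 8.83% of all peaks. By width, the level was highest at 26 to 50 nt, with a median of 13.2 CPM and 58 of 363 peaks (16%) at 100 CPM or more. It was lower in the narrowest group, with 8 CPM and 4 of 154 (2.6%). Every deposited peak had to reach a normalized level of 10 in at least 1 library, so weak narrow starts are not in the table, and a peak that is high in 1 group alone is in it through that group.

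**Figure D1:**
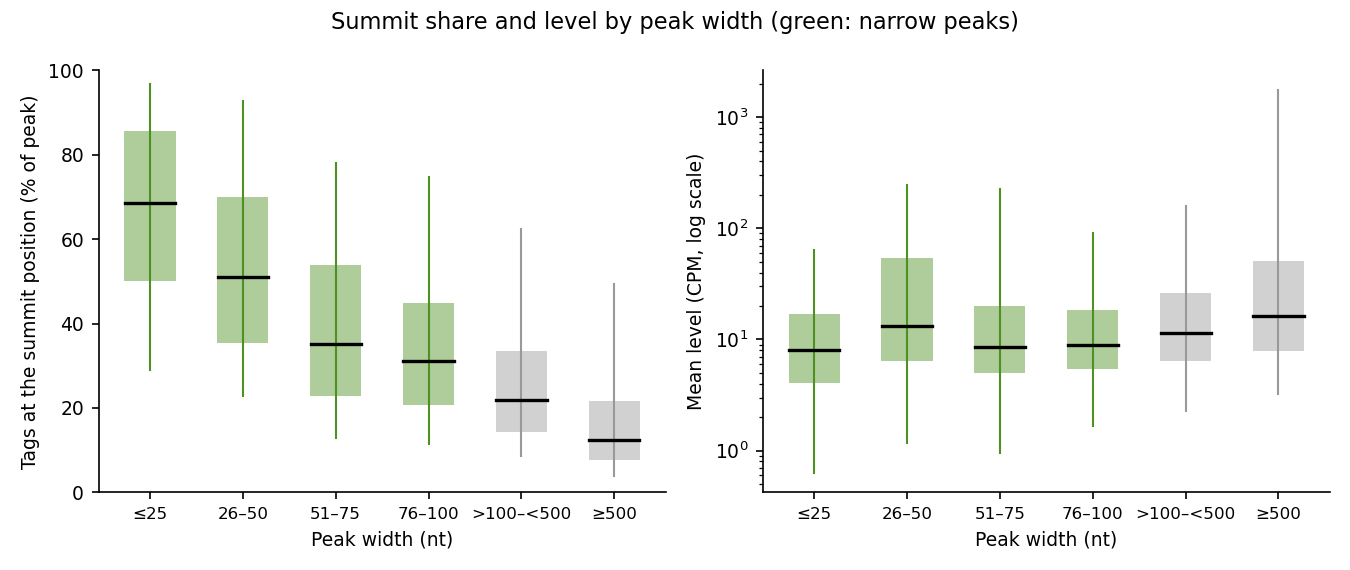
Percent of a peak's tags at its summit (left panel) and mean level in CPM on a log axis (right panel) by width of the peak, with boxes from the 25th to the 75th percentile, whiskers from the 5th to the 95th, a line at the median and narrow peaks in green. The median summit share falls from 68.5% at up to 25 nt to 12.4% at 500 nt and more, while the median level stays between 8 and 16.1 CPM.

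Most narrow peaks stood alone. No other peak of the same strand lay within 2 kb of 963 of them (71.2%), against 78.2% of all peaks, 126 were in a pair and 264 (19.5%) were in an array of 3 or more peaks joined by gaps of at most 2 kb, against 12.6% of all peaks. The share in arrays was 3.9% at up to 25 nt and 31.2% at 51 to 75 nt. Part of the arrays lay in a few long loci. When narrow peaks of a strand at most 50 kb apart were chained, a step chosen after the positions and calls were seen, 6 loci held 10 or more narrow peaks each and 165 of the 1353 (12.2%) together. These loci held 345 peaks of any width, 3.46% of all peaks, and 47.8% of them were narrow. The largest, chr3:37667272-37846889 (−), held 56 narrow peaks over 180 kb, and chr3:63649118-63728438 (−) held 34, chr10:53718046-53839077 (+) held 30, chr15:33608213-33654432 (−) held 20, chr10:82748041-82759968 (+) held 15 and chr8:126874419-126891995 (−) held 10. Median summit shares in them were 13.9% to 38.3%, all under the 40.1% of narrow peaks as a whole.

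The highest narrow peak was chr10:86337691-86337788 (+), 98 nt wide, with a mean of 6540 CPM. Its summit took 36.0% of its tags and 6 nt held the central 80%. In soleus it had 8679, 8317 and 8762 CPM in the controls, 11205, 14224 and 7328 (D1), 7163, 9548 and 6636 (D3), 10434, 9530 and 13977 (D7), 4203, 3470 and 4125 (R1), 5992, 10615 and 4098 (R3) and 3048, 5508 and 12650 (R7). The 3 R1 libraries were all below the controls, and the R7 libraries spread over a range that includes both. The change at R1 was −1.09 on the log2 scale (SE 0.40, adjusted p = 0.04), which is under the 2.38-fold change that a call needs. In EDL the same peak had 4869, 4941 and 5804 CPM in the controls and 3901, 5503 and 6560 at R1, and these groups overlapped. It was higher in soleus in 18 of 21 rats, with a log2 difference of 0.62 (SE 0.14, adjusted p = 0.000429), under the fold limit.

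The next 5 by level ranged from 1087 to 3434 CPM. Of these, chr4:166662874-166662944 (−, 3434 CPM), chr17:57194335-57194371 (−, 2958 CPM), chr14:46521295-46521379 (+, 1377 CPM) and chr16:90603043-90603094 (+, 1087 CPM) were lower in soleus than in EDL by 0.44 to 0.90 on the log2 scale with adjusted p of 0.000525 to 0.00271, again under the fold limit. With library totals chr17:57194335-57194371 was at −0.23 (adjusted p = 0.0605) and chr16:90603043-90603094 at −0.16 (adjusted p = 0.0982), so these no longer passed the test. For chr10:70109500-70109572 (+, 2311 CPM) the difference of 0.28 (SE 0.15, adjusted p = 0.113) did not pass the test, while with the 2 muscles of a rat paired it was 0.35 (adjusted p = 0.0182) and with library totals 0.60 (adjusted p = 0.00023), both under the fold limit. None of the 6 highest narrow peaks was called between the muscles. In chr4:166662874-166662944, the libraries of 1 group differed several-fold in places. It had 1373, 2425 and 5106 CPM in soleus at R7 and 9780, 12609 and 2948 CPM in EDL at D1. In the same libraries chr14:46521295-46521379 had 584, 999 and 2101 CPM and 3755, 4789 and 1165 CPM, so these 2 peaks varied together. Whether they share tags with several mapped places was not tested.

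Narrow peaks held 4.8% to 8.88% of the tags of all peaks in a library, which is less than their share of the peaks. The mean was 6.85% ± 0.878 in soleus and 5.92% ± 0.788 in EDL (SD, n = 21 each). Within a rat the soleus value was higher by 0.922 percentage points (SD 0.709, SE 0.155), and it was higher in 19 of 21 rats (2-sided permutation test over rats, p = 4.00e-05, adjusted over the 2 shares tested to 8e-05). In the 16 rats whose libraries were in the same lane the mean difference was 0.952 points, with soleus higher in 15. Some narrow peaks reached 10 CPM in 1 muscle alone, and the part of the entry level in this difference was not tested. The 5 highest narrow peaks held 16.4% to 35.4% of the narrow tags of a library, and without them the difference was 0.666 points (p = 5.00e-05 by the same permutation test), an alternative added after the data were seen.

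By phase, the share of tags in narrow peaks was 5.88% in the soleus controls, 6.05% (D1), 6.71% (D3), 7.58% (D7), 7.24% (R1), 7.76% (R3) and 6.71% (R7). The D7, R1 and R3 libraries lay above every control library. In EDL it was 5.14% in the controls, 5.72% (D1), 5.15% (D3), 6.30% (D7), 6.14% (R1), 6.83% (R3) and 6.20% (R7), and again the D7, R1 and R3 libraries lay above every control. With 3 rats against 3 the exact permutation test cannot give p under 0.10, which is the value of these 6 comparisons. All controls were in lane 1, and no D7, R1 or R3 library was. The R1 libraries were in lane 4, the D7 libraries in lanes 3 and 6 and the R3 libraries in lanes 4, 5 and 6. The part of lane in these 6 comparisons was not tested.

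**Figure D2:**
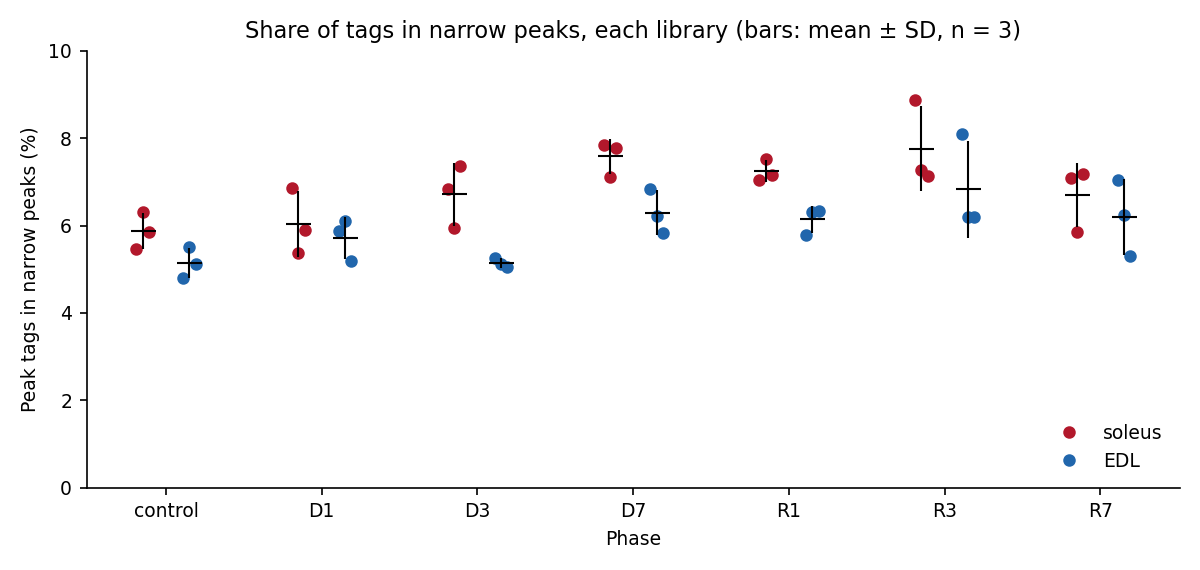
Percent of the tags of all peaks that fall in narrow peaks, for each of the 42 libraries by phase, in soleus (red) and EDL (blue), with the mean and SD of 3 rats. Soleus values run from 5.88% on average in the controls to 7.76% at R3 and EDL values from 5.14% to 6.83%.

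The median summit share of narrow peaks with at least 20 tags in a library was 39.8% in soleus and 40.9% in EDL. The difference within a rat was −1.01 points (SD 1.36), with soleus lower in 16 of 21 rats (2-sided permutation test, p = 0.00367). It turned to 0.64 points (p = 0.17 by the same permutation test) when the same 357 narrow peaks, those with at least 20 tags in every library, were used throughout, so its direction depends on which peaks enter. Against the controls, no phase moved this median by more than 1.37 points in either muscle, and the libraries of every phase overlapped those of the controls. Over the same 357 peaks the moves reached 1.90 points higher in soleus at D3 and 1.81 points lower in EDL at D1, and the soleus D7 libraries (47.3% to 48.3%) lay just above the controls (46.1% to 47.3%).

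Between the muscles, 215 of 1337 narrow peaks tested were called (16.1%), 101 higher in soleus and 114 higher in EDL, against 13.9% of all peaks tested, 7.37% higher in soleus and 6.57% higher in EDL. A call needs an adjusted p under 0.05 in edgeR's quasi-likelihood test, fitted over all peaks, and a change of over 2.38-fold in either direction, the limits used in the study. With plain library totals in place of TMM, which moved the median of all peaks by 0.25 toward soleus, 132 were higher in soleus and 89 in EDL. The same direction in all 21 rats was found for 134 narrow peaks, 53 higher in soleus and 81 in EDL (9.59% of all peaks tested). Many calls are of peaks that reached 10 CPM, on the TMM scale used here, in 1 muscle alone, and the entry level of the table favours a difference in these. Of the 101, 92 reached 10 CPM in soleus libraries only, and of the 114, 73 in EDL libraries only. Of the 916 tested narrow peaks with 10 CPM in a library of both muscles, 7 were higher in soleus and 41 in EDL (5.24%), against 6.34% of all such peaks. 16 narrow peaks were too weak to be tested.

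The calls were unevenly placed. Of narrow peaks that stood alone, 76 of 951 (7.99%) were called, 48 of them higher in soleus. In pairs it was 31 of 122 (25.4%), and in arrays of 3 or more 108 of 264 (40.9%), with 39 higher in soleus and 69 in EDL. Neighbouring peaks of a locus were counted singly, and 2 of the long loci held 30 of the 114 narrow calls toward EDL and 20 of the 101 toward soleus. Peaks over 100 nt had the same order, with 674 of 6831 (9.87%) called alone and 337 of 986 (34.2%) in arrays. With library totals the arrays gave 45 and 63 calls and the peaks alone 69 and 18. Over peaks with 10 CPM in both muscles the percentages were 2.57% alone, 15.1% in pairs and 13.4% in arrays, so that pairs and arrays changed order.

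In 2 of the long loci every narrow peak differed between the muscles. At chr10:53718046-53839077 all 30 narrow peaks were called higher in EDL, with a median log2 difference of −6.79, and their summed level averaged 39.0 CPM in soleus and 923 CPM in EDL. At chr15:33608213-33654432 all 20 were called higher in soleus, with a median of 4.68, and the summed level averaged 476 CPM in soleus and 21.1 CPM in EDL. These loci were chosen with the calls known, so the counts describe them. The other long loci were mixed, with 5 of 10 narrow peaks called higher in EDL at chr8:126874419-126891995, 1 of 56 called higher in soleus at chr3:37667272-37846889 and none of the 34 and 15 at chr3:63649118-63728438 and chr10:82748041-82759968. Outside all 6, 159 of 1172 narrow peaks (13.6%) were called.

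The 4 largest differences toward EDL among peaks with the same direction in every rat were −8.50 to −8.70 on the log2 scale, with adjusted p of 1.49e-17 to 5.56e-17. The largest was chr10:53796967-53797056 (+), 90 nt wide, in the locus on chromosome 10. Its EDL libraries had 143, 243 and 175 CPM in the controls, 210, 603 and 174 (D1), 80.4, 66.2 and 75.6 (D3), 90.1, 132 and 54.6 (D7), 86.1, 139 and 59.3 (R1), 132, 95.3 and 181 (R3) and 175, 244 and 76.6 (R7). Its 21 soleus libraries stayed at or below 9.89 CPM, and that value, in 1 D1 rat, was the only one over 2.37. The others were chr10:53783814-53783888 (+), with a mean of 35.1 CPM in EDL and 0.185 CPM in soleus, chr1:100521542-100521640 (−), with 24.1 and 0.117 CPM, and chr7:119438572-119438649 (−), with 14 and 0.0405 CPM. All 4 reached 10 CPM in EDL libraries alone, so the entry level of the table favours this difference, and their p-values support nothing.

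Toward soleus, the 4 largest differences were 5.04 to 5.75, with adjusted p of 1.54e-15 to 1.59e-14, and all lay in the locus on chromosome 15. The largest was chr15:33613885-33613952 (−), 68 nt wide, with a mean of 12.4 CPM in soleus and 0.478 CPM in EDL. Its soleus libraries had 21.2, 19.4 and 11.8 CPM in the controls and 4.65, 5.35 and 5.36 at R1, and every EDL control was at 0. The others, chr15:33621343-33621435, chr15:33621925-33622009 and chr15:33649411-33649497 (all −), had means of 10.8 to 11.2 CPM in soleus and 0.41 to 0.525 CPM in EDL. These 4 reached 10 CPM in soleus libraries alone, so the entry level likewise favours this difference, and their p-values support nothing.

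Across the phases, 548 of 1308 narrow peaks tested in soleus changed in any phase at an adjusted p under 0.05 (41.9%), against 49.0% of all peaks, and in EDL it was 52 of 1202 (4.33%), against 6.05%. A further 45 narrow peaks in soleus and 151 in EDL were too weak to be tested. In soleus 9 narrow peaks were called at D1 (6 higher and 3 lower, with 1.97% of all peaks called), 4 at D3 (3 higher and 1 lower, 0.721%) and none at D7 (0.122% of all peaks, with 116 narrow peaks at an unadjusted p under 0.05 and 16 called by DESeq2). At R1 331 were called (25.3%), 217 higher and 114 lower, against 23.3% of all peaks tested, 14.7% higher and 8.60% lower. The entry level of the table bears on this split, since it favours a rise in peaks that reached 10 CPM in no library outside soleus R1. These were 114 of the 217 higher peaks, against 1 of the 114 lower peaks that reached it in the soleus controls alone. Not every such peak was called, with 114 of 145 tested called higher at R1 and 6 of 48 by the same rule at R7. Of the 1158 tested narrow peaks with 10 CPM in a library outside both groups, 101 were higher and 113 lower (18.5%), against 18.6% of all such peaks. At R3 36 were called (2.75%), 33 higher, against 1.66%, and at R7 38 (2.91%), 33 higher, against 4.18%. Without any 1 of the controls or without R3 rat U4 the 36 fell to 0. Without R7 rat U19 the 38 became 124, and without any 1 of the other 5 libraries it was 2 to 14. The D1 count was 3 to 5 without control U6 or U8 or D1 rat U24 or U25 and 15 without U26, and the D3 count was 0 without U6, U8 or U9 and 2 without U10. With lane as a term in a fit over all 42 libraries, soleus had 3 calls at D1, 2 in place of the 331 at R1, none in D3, R3 and R7, and 36 in any phase. With plain library totals the R7 calls were 16 higher and 10 lower, and with DESeq2 the R3 calls were 56 higher and 13 lower.

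In EDL 15 narrow peaks were called at D1 (9 higher and 6 lower, 3.16% of all peaks called), 14 at D3 (6 higher and 8 lower, 1.34%) and 3 at D7, all lower (1.04%). Of the 9 higher at D1, 4 reached 10 CPM in no library outside EDL D1, and none of the 6 lower reached it in the controls alone. Over narrow peaks with 10 CPM outside both groups the D1 split was 5 higher and 6 lower (0.943%), against 3.04% of all such peaks. At R1, R3 and R7 edgeR called none of 1202 and none of all 9341 peaks (0%). Without R3 rat U5 13 narrow peaks were called at R3, all higher. At an unadjusted p under 0.05 there were 130, 239 and 67 narrow peaks, and DESeq2 called 5, 17 and 0. Without D3 rat U11 the D3 count was 172, and without any 1 of the other 5 libraries it was 0 to 6. The D1 count was 26 without U26, 9 without U24 and 2 or 3 without U6, U8 or U25, and the D7 count was 0 without U6, U8 or U1 and 1 without U3. With lane as a term none was called in D1, D3 and D7 of EDL. With library totals the splits were 5 higher and 1 lower at D1, 10 and 6 at D3 and 2 and 1 at D7, and with DESeq2 they were 19 and 7, 15 and 35, and 4 and 12.

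The direction of the soleus R1 changes went with placement, and width went with placement too. Of narrow peaks that stood alone, 213 of 946 were called, 177 higher and 36 lower. In pairs 20 were higher and 12 lower, and in arrays of 3 or more 86 of 240 were called, 20 higher and 66 lower. Peaks over 100 nt had 938 higher and 386 lower of 6802 alone and 110 higher and 245 lower of 958 in arrays. By width, 35 peaks were higher and 3 lower at up to 25 nt, 52 and 16 at 26 to 50 nt, 48 and 36 at 51 to 75 nt and 82 and 59 at 76 to 100 nt. Among peaks that stood alone the split by width was 30 and 3, 48 and 9, 32 and 10, and 67 and 14, with no steady trend. Arrays held 3.9% of the narrow peaks at up to 25 nt and 31.2% at 51 to 75 nt. The shares called by width over all narrow peaks tested were 25.9%, 19.1%, 24.9% and 30.1%, against 23.3% of all peaks. In pairs the split turned to 16 higher and 17 lower with DESeq2 and to 18 and 22 without R1 rat U18. With library totals, which moved the median of all peaks at R1 by 0.25 upward, the whole split was 255 higher and 62 lower, with 214 and 17 alone and 21 and 38 in arrays. Over the peaks with 10 CPM outside both groups the split was 94 higher and 35 lower alone, 3 and 12 in pairs and 4 and 66 in arrays, and by width 20 and 2, 27 and 16, 17 and 36, and 37 and 59, so that in pairs and above 50 nt most calls were lower. All 15 called peaks among the 69 tested with at least 90% of their tags at the summit were higher, a share called that is close to the 23.3% of all peaks, and 8 of the 62 with 10 CPM outside both groups (12.9%) were called, against 18.6% of all such peaks.

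In 720 of the 1308 narrow peaks the R1 and control libraries did not overlap, 371 of them higher at R1, and over all peaks tested this was 55.7%. The lane of the libraries moves with these groups. When lane was added as a term in a fit over all 42 libraries, where the soleus libraries D1 U24 in lane 1 and R3 U4 in lane 4 carry the link, 2 narrow peaks were called at R1 and none of the 8 named below was, while the same fit without lane called 332. With lane the fitted changes of the 4 named falls were −5.95 to −7.28 on the log2 scale. In the fit of the soleus libraries alone, without lane, they were −4.13 to −5.96, so the 2 sets differ in more than lane. The 4 named rises had controls without a tag, so the sizes of their fitted changes are not compared. Over the 8 the adjusted p with lane was 0.153 or more.

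The 217 narrow peaks called higher at R1 had a median of 1.76 to 2.25 CPM in the 3 soleus control libraries, 1.67 to 2.51 CPM in the 9 unloading libraries, 10.8 to 17.1 CPM at R1, 3.06 to 3.96 CPM at R3 and 2.97 to 4.10 CPM at R7. Since R1 and the control chose these peaks, those 2 groups had to differ, and the other soleus phases are set against the same controls that chose them. In EDL the median of these peaks was 1.01 to 1.67 CPM in the controls, 2.13 to 2.30 (D1), 1.39 to 2.43 (D3), 1.70 to 1.96 (D7), 1.48 to 1.78 (R1), 1.46 to 2.63 (R3) and 1.47 to 1.84 (R7), so that all D1 and D7 libraries lay above every EDL control and the other groups overlapped them. The EDL D1 libraries of U24 and U25 held 1778712 and 2650176 tags in all, so these medians rest on few tags per peak. Of the 217, 129 were tested in EDL, with a median log2 change of 0.644 at D1 and 0.529 at D7. Over 1170 narrow peaks it was 0.338 and 0.154, so narrow peaks in general also stood higher. The 114 called lower had medians of 9.28 to 14 CPM in the controls, 3.21 to 3.68 CPM at R1 and 4.76 to 7.65 CPM at R3. At R7 the libraries had 3.77, 8.22 and 12.4 CPM. Only the highest of these R7 libraries lay within the range of the controls, and the others lay below every control.

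In the 6 long loci 49 narrow peaks were called lower at R1 and none higher, of 148 tested, so that these loci held 49 of the 114 lower calls. Over all peaks tested 8.60% were lower and 14.7% higher, and since the loci were chosen with the calls known, their counts describe them. With library totals it was 23 lower and none higher. At chr15:33608213-33654432 15 of 20 were called lower, and the summed level was 404 to 738 CPM in the soleus controls, 156 to 242 CPM at R1, 268 to 377 CPM at R3 and 154 to 677 CPM at R7. At chr10:53718046-53839077 11 of 13 tested were called lower, with a summed 20.2 to 129 CPM in the soleus controls, 8.96 to 30.4 CPM at D7, 0.401 to 4.13 CPM at R1 and 22.8 to 106 CPM at R7. In EDL this locus had 1001 to 1389 CPM in the controls and 521 to 949 CPM at R1, and none of its peaks was called there. At chr3:37667272-37846889 19 of 56 were called lower, with a sum of 834 to 1318 CPM in the controls and 485 to 519 CPM at R1. At chr3:63649118-63728438 4 of 34 were called lower, with 333 to 1045 CPM in the controls and 214 to 368 CPM at R1, and these overlapped.

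The 4 largest rises at R1 in soleus were all from control libraries without a tag, so each fold is a lower bound against 3 tags over the 3 controls. The most extreme, chr20:4958731-4958752 (−), is 22 nt wide with 99.0% of its tags at 1 base. It had 2356, 280 and 0.295 CPM at R1 and 0 in all 3 controls, so its R1 mean was at least 8521-fold higher (adjusted p = 0.0111). These R1 values rest on 33450, 4182 and 6 tags, so 2 of the 3 rats carried the rise. It was not particular to R1, with 5.81 CPM in 1 D1 library, 15.7 in 1 D7 library, 16.7 in 1 R3 library and 5.72 and 10.6 in 2 R7 libraries, and the same rats had 3.19, 5.98, 3.50, 1.84 and 5.89 CPM in EDL.

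The other 3 rises were even in their direction. The peak chr14:34354461-34354544 (+), 84 nt wide with 92.2% of its tags at the summit, had 87.6, 19.5 and 18.6 CPM at R1, which is at least 406-fold higher than the controls (adjusted p = 6.77e-05). It was back at 0.241, 0.25 and 0.132 CPM at R3. The peak chr19:29201416-29201502 (−) had 44.6, 27.2 and 14.4 CPM at R1, at least 278-fold higher (adjusted p = 2.25e-05). The peak chr13:50921094-50921134 (+) had 54.2, 12.2 and 11.1 CPM, at least 250-fold higher (adjusted p = 3.52e-05). None of these 3 exceeded 1.62 CPM in any other soleus library or 0.593 CPM in any EDL library, and in each the R1 libraries differed by 3-fold or more. These 3 are in the table through the R1 libraries alone, so the entry level favours a rise from the controls, and their folds and p-values describe them and support nothing.

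The 3 largest falls lay side by side in the locus on chromosome 10. The peak chr10:53735474-53735554 (+) had 11.8, 15.4 and 3.25 CPM in the controls and 0, 0 and 0.393 at R1 (log2 −5.96, SE 1.5, adjusted p = 0.00472). The peak chr10:53733440-53733526 (+) had 11.8, 21.4 and 2.71 CPM and then 0.141, 0.0669 and 0.442 (log2 −5.61, SE 1.36, adjusted p = 0.0037), and chr10:53731821-53731918 (+) had 12, 23.3 and 2.98 CPM and then 0.211, 0.0669 and 1.03 (log2 −4.73, adjusted p = 0.00633). In each of the 3 the control rats had the same order, and the D3 library of U9, with 0.0523, 0.105 and 0.314 CPM, lay within the range of R1. At D7, before reloading, the means were already 1.76, 1.91 and 1.26 CPM against 10.1, 12 and 12.8 in the controls. In the first and the third peak every D7 library was below every control, but none of the 3 was called at D7. The fourth, chr4:170509945-170510011 (+), is 67 nt wide with 88.1% of its tags at the summit, and had 14.9, 5.74 and 12.6 CPM in the controls and 0.352, 0.870 and 0.590 at R1 (log2 −4.13, SE 0.64, adjusted p = 0.000115). In EDL it had 4.44, 7.11 and 2.48 CPM in the controls and 0.742, 0 and 0.954 at R1, which do not overlap but did not pass the test (log2 −2.72, SE 0.72, adjusted p = 0.24). All 8 calls at R1 held without any single library.

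**Figure D3:**
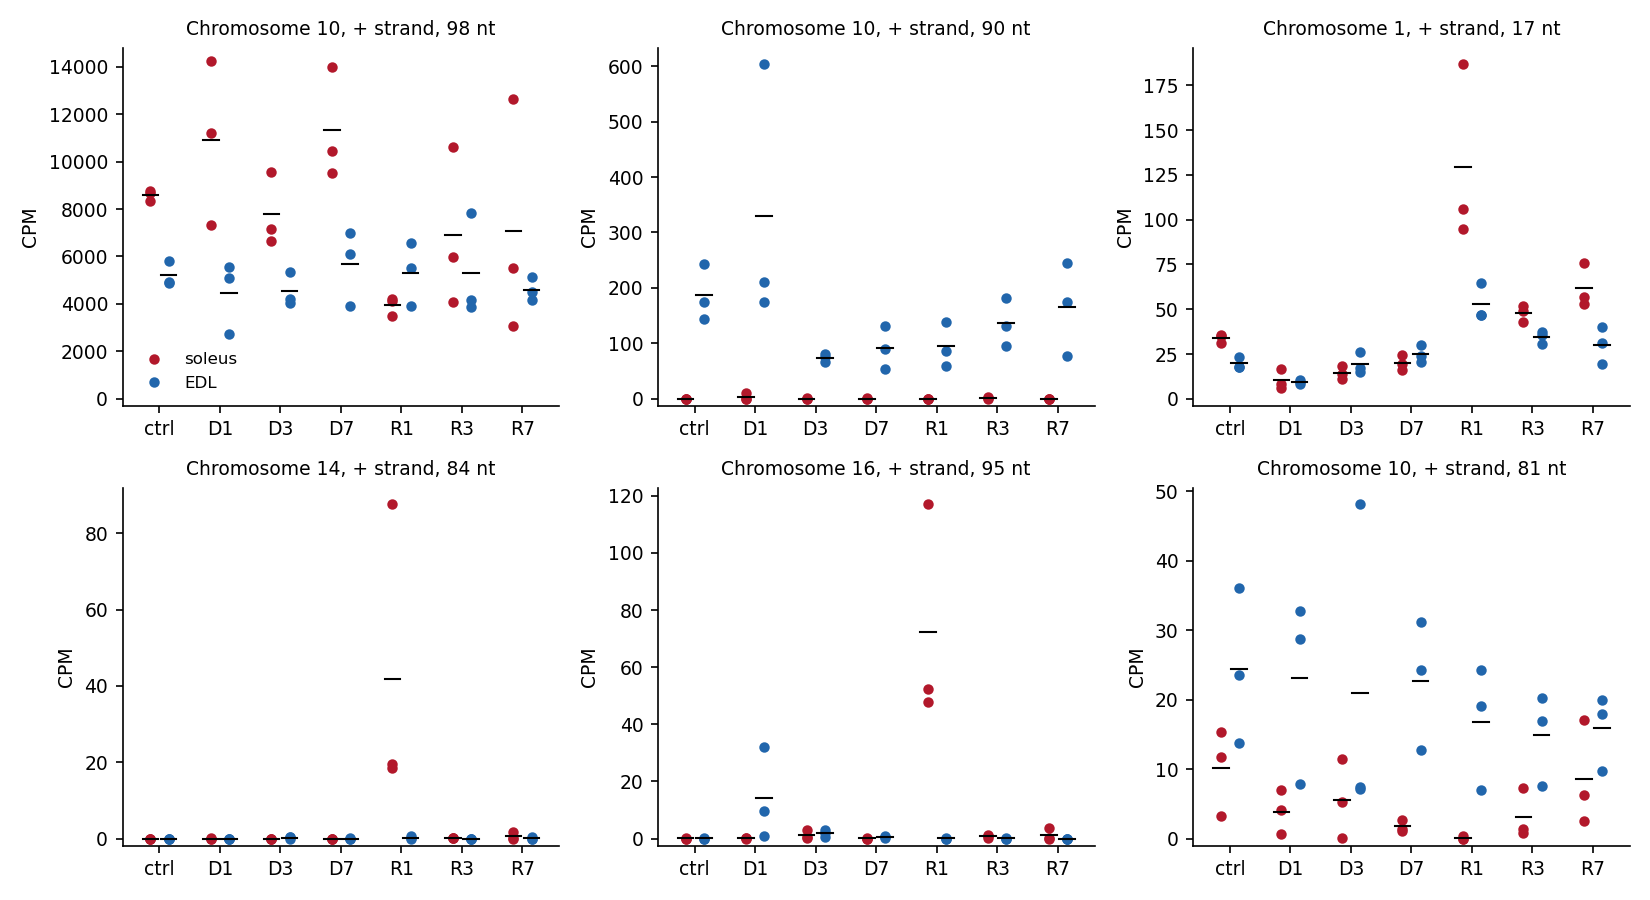
Level in CPM of 6 narrow peaks in every library by phase, soleus in red and EDL in blue, with a bar at the mean of 3 rats. The 17 nt peak on chromosome 1 falls at D1 and stands highest at R1 in both muscles, the 84 nt peak on chromosome 14 and the 95 nt peak on chromosome 16 are high at R1 in soleus, with 18.6 to 87.6 and 47.8 to 117 CPM, and the 90 nt peak on chromosome 10 stands at 54.6 CPM or more in every EDL library.

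Several peaks changed in more than 1 phase. The peak chr1:114232494-114232510 (+) is only 17 nt wide, with 78.2% of its tags at the summit. In soleus it had 31.3, 35.7 and 34.8 CPM in the controls, 5.81, 8.45 and 16.5 (D1), 14, 10.8 and 18.5 (D3), 19.6, 16.3 and 24.6 (D7), 187, 94.8 and 106 (R1), 42.8, 48.8 and 51.6 (R3) and 75.9, 52.8 and 56.9 (R7). It thus fell at D1 (log2 −1.69, SE 0.33, adjusted p = 0.0105) and rose at R1 (log2 1.97, SE 0.33, adjusted p = 0.000241), with no overlap with the controls in any phase. Without D1 rat U25 the D1 value was −1.57 with an adjusted p of 0.055. In EDL it had 17.8, 18 and 23.6 CPM in the controls, 9.58, 10.7 and 8.49 at D1 and 46.6, 46.9 and 64.9 at R1. There the D1 difference of −1.14 (adjusted p = 0.0432) was under the fold limit and the R1 difference of 1.37 (adjusted p = 0.199) did not pass the test, and the difference between the muscles in the R1 change was 0.51 (SE 0.42, adjusted p = 0.475).

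The peak chr7:66621151-66621210 (+), 60 nt wide, was the largest fall at D3 in soleus and at D1 in EDL. In soleus it had 15, 10.5 and 14.8 CPM in the controls, 5.81, 1.34 and 4.78 at D1, 1.78, 1.62 and 2.53 at D3 and 0.915, 2.41 and 3.54 at R1 (D3: log2 −2.79, SE 0.53, adjusted p = 0.0181). In EDL it had 21.3, 20.5 and 17.6 CPM in the controls and 9.58, 3.05 and 5.95 at D1 (log2 −1.79, SE 0.42, adjusted p = 0.0202). It was lower in soleus in all 21 rats. The D3 call was lost without U6, U8, U9 or U10, with adjusted p of 0.0859 to 0.1, and the D1 call in EDL without U6, U8, U25 or U26, with 0.0555 to 0.113.

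The peak chr16:81639096-81639190 (+), 95 nt wide, was at 0 to 0.303 CPM in all 6 controls. In EDL it had 9.58, 32 and 0.872 CPM at D1, and this rise (log2 6.12, SE 1.28, adjusted p = 0.0126) was lost without U6, U8 or U25, with adjusted p of 0.0657 to 0.123. In soleus it had 117, 52.2 and 47.8 CPM at R1 (log2 9.03, SE 1.18, adjusted p = 2.67e-05) and at most 3.67 CPM in every other library. In EDL at R1 it had 0, 0 and 0.159 CPM. This peak reached 10 CPM in EDL D1 and soleus R1 libraries alone, the groups in which it was called, so the entry level favours these rises. Its fold changes and p-values describe it and support nothing.

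The remaining peaks were named for 1 phase each, lost their calls there without 1 library in several ways, and are given by their levels. Some were also called in other phases. In soleus chr17:43779205-43779267 was called higher at R1 (log2 2.30, adjusted p = 0.0231) and R7 (log2 3.27, adjusted p = 0.0242). There chr2:196094719-196094813 was called lower at R7 (log2 −2.51, adjusted p = 0.0139) and chr10:53638398-53638488 lower at R1 (log2 −2.91, adjusted p = 0.0488). At D3 chrX:39154147-39154157 (+), 11 nt wide with 93.2% of its tags at the summit, had 12.1, 18.5 and 5.06 CPM in soleus against 2.26, 2 and 2.17 in the controls (adjusted p = 0.0127, and 0.0592 to 0.0856 without U6, U8, U9 or U10). It reached 10 CPM in soleus D3 and D7 libraries alone, so the entry level favours a rise there. At R3 chr17:43779205-43779267 (+) had 24.3, 12 and 20.9 CPM against 1.31, 2.25 and 4.06 (adjusted p = 0.0478, and 0.0514 to 0.229 without any 1 of the 6), and chr2:196094719-196094813 (+) had 1.69, 4.25 and 2.90 CPM against 6.13, 13.9 and 14.5 (adjusted p = 0.0451, and 0.0904 to 0.186 without any but U5). With lane as a term the change of this second peak turned from −1.90 to 0.98 on the log2 scale (adjusted p = 1). At R7 chr10:53638398-53638488 (+) had 12.8, 22.9 and 2.45 CPM against a control mean of 0.861 ± 0.336 (adjusted p = 0.0309, and 0.0638 to 0.142 without any but U19). It reached 10 CPM in no library outside soleus R7, so the entry level favours a rise, and its p-value supports nothing. With lane as a term its change turned from 3.91 to −1.64 (adjusted p = 0.985). Also at R7, chr15:33617658-33617732 (−) had 0, 0.198 and 0 CPM against 32.8, 29.3 and 8.81 (adjusted p = 0.049, and 0.0552 to 0.2 without any 1 of the 6), and this peak was at or below 0.264 CPM in 1 soleus library each of D1, D3 and R1 and in 2 of R3 as well.

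In EDL at D3, chr10:15449863-15449891 (−), 29 nt wide, had 25.4, 29.6 and 3.89 CPM against 2.02, 2.51 and 2.23 in the controls (adjusted p = 0.0446, and 0.139 to 0.222 without any but U11). The peak chr6:95095606-95095634 (+), also 29 nt wide, had 1.09, 2 and 0.807 CPM against 12.2, 36.4 and 14.4 (adjusted p = 0.011, and 0.0592 to 0.0749 without U7 or U9). At D7 chr18:26212730-26212806 (−) had 12.3, 15.4 and 3.47 CPM against 52.8, 56.5 and 77.6 (adjusted p = 0.0126, and 0.0542 to 0.059 without U1, U6 or U8). In soleus this last peak had 8.61, 22.0 and 4.14 CPM at D7 and 15.5, 31.2 and 38.6 in the controls, which overlap. In EDL it was also called lower at D3 (log2 −1.88, adjusted p = 0.0486). The peak chr10:15449863-15449891 was also called higher in soleus at R1 (log2 3.17, adjusted p = 0.000515) and R3 (log2 2.88, adjusted p = 0.0289). It had 20.6, 64.7 and 50 CPM in soleus at R1 against 4.45, 5.62 and 5.42 in the controls.

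The R1 change itself was compared between the muscles as an interaction over all 42 libraries. For 105 of 1337 narrow peaks (7.85%) the change differed, 52 more toward a rise and 53 more toward a fall in soleus than in EDL, against 10.3% of all peaks tested, 5.51% and 4.75% by direction. All 11 called among the 148 tested of at most 25 nt were toward a rise in soleus. The entry level favours a difference here as well for peaks that are in the table through soleus R1 alone. Without U6 in both muscles 30 were called, and without U7 or U20 64. With the rat as a block, which pairs the 2 muscles of an animal, 114 were called, and for the muscle difference 218. With lane as a term 105 were called, 48 of them toward a rise in soleus. In both muscles the controls were in lane 1 and the R1 libraries in lane 4, so a lane effect equal in both muscles drops out of the interaction. Whether lane acted on the muscles unequally was not tested.

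At the level of single bases, few narrow peaks moved their tags to or from the summit. Of 1188 narrow peaks with at least 20 tags in at least 14 libraries, 25 (2.10%) had a summit share that differed between the muscles by at least 10 points at an adjusted p under 0.05 (edgeR's quasi-likelihood test on summit and other tags of a peak), 6 higher in soleus and 19 in EDL, against 1.69% of all 9293 peaks tested. Without rat U18 or U19 41 differed, 16 and 14 of them higher in soleus, and without U3 38, of which 11. The largest toward EDL was chr7:14369773-14369854 (−), whose summit took 10% to 26.1% of its tags in the soleus libraries and 20% to 56.2% in the EDL libraries with 20 tags (difference −17.1 points, adjusted p = 5.28e-07). Its mean level was 7.96 CPM in soleus and 7.70 CPM in EDL (log2 −0.04, SE 0.11, adjusted p = 0.792). The next were chr8:126884826-126884875 and chr8:126888585-126888677 (both −), in the long locus on chromosome 8, with −15.3 and −14.6 points. Their libraries overlapped, with 25.7% to 84% in soleus and 39% to 75% in EDL in the first, and 2.17% to 27.2% and 7.28% to 41.5% in the second. Toward soleus they were chr3:155192823-155192854 (−), chr5:144925803-144925837 (+) and chr2:161554142-161554190 (+), with 14.2, 12.3 and 12.2 points and adjusted p of 0.0194 to 0.0438. The muscles overlapped widely in all 3. In this order the libraries had 36.4% to 83.8%, 9.23% to 61% and 25.1% to 76.4% in soleus. In EDL they had 19.4% to 78.8%, 5.49% to 65.5% and 15.2% to 75.5%.

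At R1 in soleus the summit share differed from the controls in 12 of 1188 narrow peaks (1.01%), 9 higher and 3 lower, against 1.51% of all peaks. Leaving out R1 rat U18 raised the 12 to 46. The 3 named here were chosen after their values were seen. In chr1:255573382-255573422 (−), 41 nt wide, the summit took 34.6%, 23.8% and 25% of the tags in the controls and 83.7%, 83.9% and 84.3% at R1 (56.1 points, adjusted p = 0.00195), while its level was 1.90, 2.62 and 2.71 CPM and 3.45, 6.22 and 5.94 CPM. Higher shares than in the controls were not particular to R1, with 52.2% and 38.1% in 2 of the 3 D1 libraries, 63.6% and 65.4% in 2 of the D3 libraries, 41.4% in the 1 D7 library with 20 tags, 81.5%, 60.6% and 38.1% at R3 and 48.3% in 1 of the 2 R7 libraries with 20 tags. In EDL it was 88.9% and 79.4% in the 2 R1 libraries that had 20 tags, and no EDL control had that many. In chr12:39628569-39628586 (+), 18 nt wide, it was 19.7%, 18.6% and 17.8% in the controls and 59.2%, 68.3% and 69.4% at R1 (46.9 points, adjusted p = 0.00858). Its R3 libraries had 66.0%, 64.2% and 51.1%, its R7 libraries 58.5%, 54.5% and 24.2%, its D3 libraries 36.9%, 44.4% and 6.40%, and D1 rat U25 had 72.0%, above every R1 library. The EDL libraries had 19.7%, 6.67% and 12.6% in the controls and 55.2%, 37.3% and 36.0% at R1. In chr7:66621151-66621210 the share was lower at R1, with 30.6% and 36.1% in the 2 libraries with enough tags against 55.6%, 76.2% and 56.9% (−29.6 points, adjusted p = 0.0226). Shares under the lowest control were not particular to R1 here either, with 38.1% and 42.1% in 2 of the D1 libraries, 50% and 46.2% at D3, 51.9%, 49.2% and 52.8% at R3 and 40% and 42.9% in 2 of the R7 libraries.

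In some narrow peaks the 2 muscles of a rat deviated together from their group means. For every peak the deviations of the 21 soleus libraries from their group means were set against those of the EDL libraries of the same rats, on the scale of log2(CPM + 0.5). In 20 of all peaks the correlation was over 0.8 and the SD over 1, and 14 of these were narrow, which is 1.03% of the narrow peaks and 0.201% of all peaks. At an SD over 1.5 all 7 were narrow, and at any SD 17 of 60. These limits were chosen after values were seen, the points of a peak share their rats, and no p is given. The deviations leave out the phase means by construction, so the correlation does not bear on whether a peak also changed with phase. The median correlation was 0.155 in narrow peaks and 0.186 in all, so most narrow peaks did not behave in this way.

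In chr18:1825631-1825651 (−), 21 nt wide, rat U13 had 40.3 CPM in soleus and 35.7 in EDL and rat U9 had 16.7 and 12.4, and each of the other 19 rats was under 0.5 CPM in both muscles (r = 0.979). In chr6:136541253-136541283 (−) the same 2 rats stood apart, with 94.1 and 84.1 CPM in U13 and 32.7 and 31.2 in U9, while no other library passed 2.37 CPM (r = 0.954). In chr11:1772967-1773036 (+) U13 had 113 and 118 CPM and U9 49.8 and 46.7, against at most 18.4 CPM elsewhere (r = 0.917). In chr15:88692545-88692562 (−), 18 nt wide, 12 rats had 30.6 to 94.6 CPM in both muscles and the other 9 had 0 to 1.49 CPM (r = 0.972). The high rats were U6 of the controls, U25 of D1, U19 of R7 and every rat of D3, D7 and R3, with none of R1. Rats of a group that were all high or all low deviate little from their mean, so r rests mainly on the control, D1 and R7 rats. The peak chr16:75874522-75874581 (−), the largest rise at D1 in soleus with 67.8, 158 and 34.7 CPM against 0.073 to 0.499 in the controls (adjusted p = 0.0411), also belongs here (r = 0.936). Its EDL libraries had 54.3, 65.5 and 22.5 CPM in the same 3 D1 rats, and the 6 rats outside D1 with over 10 CPM in soleus, 1 (D3), 1 (D7), 1 (R1) and all 3 (R3), were the ones with over 10 CPM in EDL. Its D1 call was lost without any 1 of the 6 libraries but U26, with adjusted p of 0.078 to 0.173. The peak on chromosome 20 that led the rises at R1 was another of the 14 (r = 0.871), although its R1 rats with 2356 and 280 CPM in soleus had 2.97 and 1.19 CPM in EDL.

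**Figure D4:**
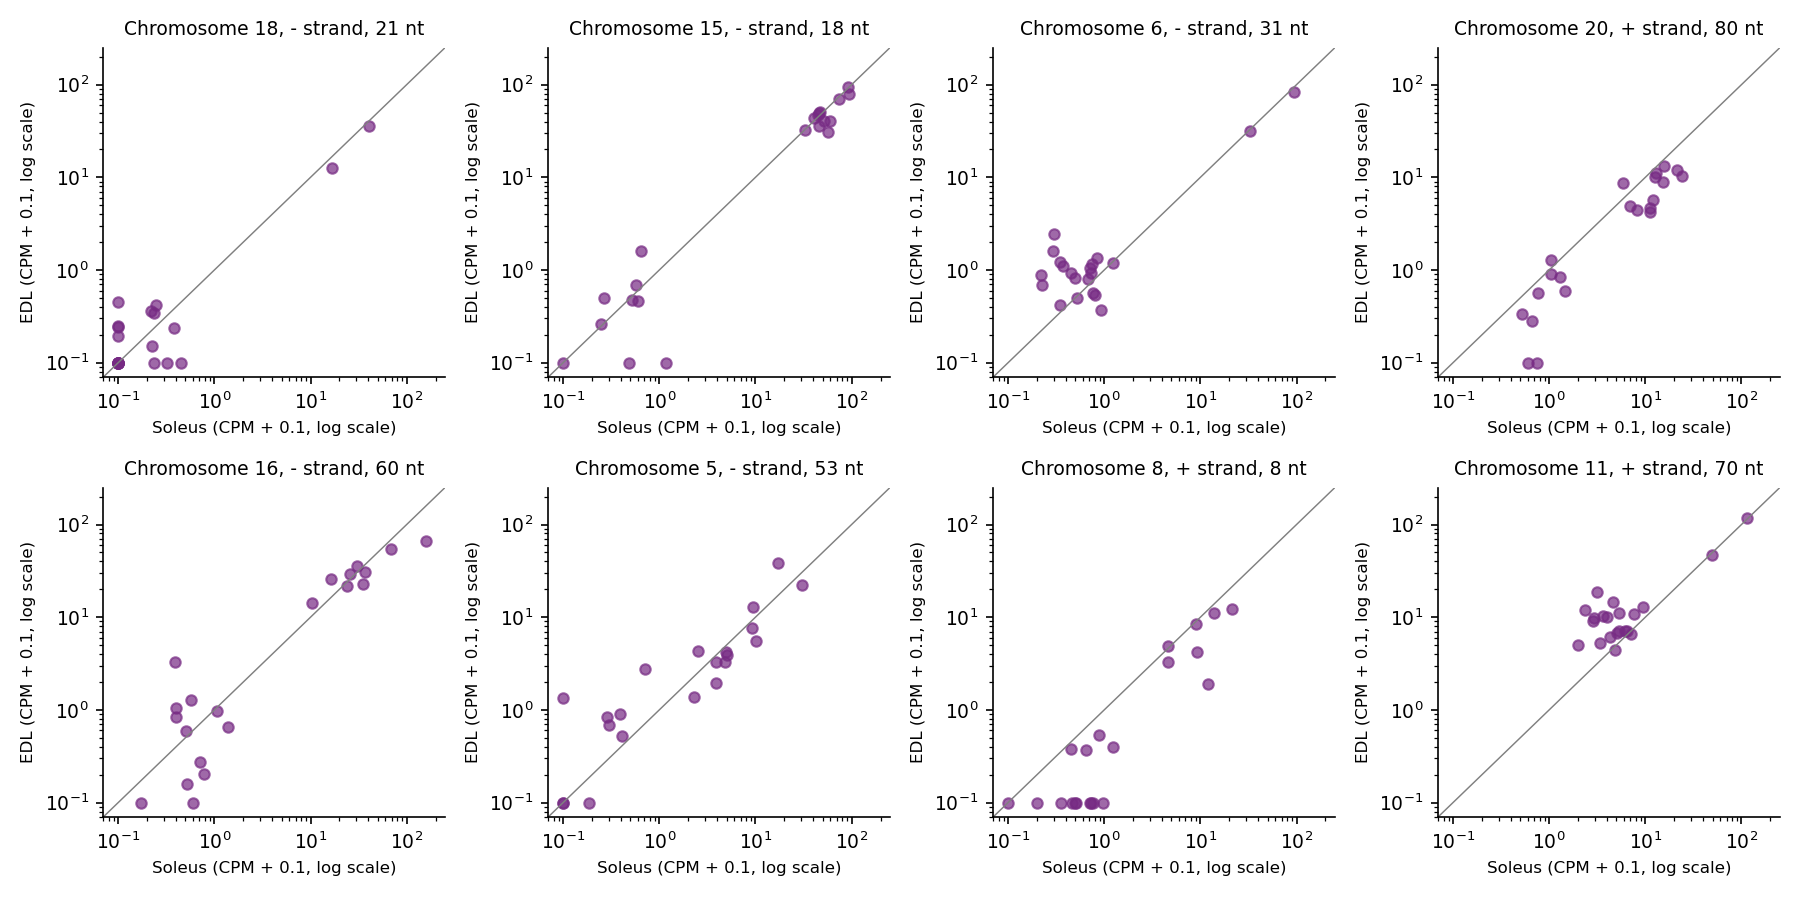
Level in soleus against level in EDL of the same rat, both as CPM + 0.1 on log axes, for 8 narrow peaks with a correlation over 0.8, with 1 point per rat (21 rats) and the line of equal values. Points lie along the line in separate low and high clusters in several panels, such as 12 high and 9 low rats for the 18 nt peak on chromosome 15.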

How the data were processed

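The nAnT-iCAGE libraries of soleus and EDL were made from total RNA. According to the methods of the study, reads were trimmed (Trimmomatic) and aligned to Rnor_6.0 (STAR), alignments of a read at 20 or fewer places were kept, unmapped reads were dropped, and the authors summed the tags per CTSS with PromoterPipeline. The processing notes in the labels name Trimmomatic 0.38, BWA and HISAT2, and how the tools were combined is not given in the sources used here. The authors deposited raw counts, whole numbers of rescued tags without normalization, per CTSS of each library and per peak over all 42 libraries. A read with several mapped places is shared out by the rescue step, so tags of near-identical copies are uncertain. The 42 normalized columns of the peak table were not used. The counts of all 418782 cells of peaks and libraries equalled the sums of the CTSS tags within them.

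Levels are CPM of the TMM library size. Tests used edgeR 4.0.16 under R 4.3.3 (filterByExpr, TMM, quasi-likelihood F test, Benjamini-Hochberg adjustment over all peaks tested). Each phase was compared with the control among the 7 groups of a muscle, and the muscles and the R1 interaction over 14 groups. The SE of a log2 fold change is its size over the square root of F. The summit tags and the other tags of a peak were tested in an edgeR fit with library effects, in which the fits without 1 library kept the dispersions of the full fit. Shares of tags were compared within rats by permuting signs (100000 resamples, 2-sided) and between phases by the exact permutation test. The floor for 0 tags is 3 tags over a group, for counting error only. Scripts were tried on simulated data. Python 3.11.15, numpy 2.4.6 and pandas 2.3.3 were used, with DESeq2 1.42.0 as an alternative.

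The animal number in the labels pairs the muscles of 1 rat. Deviations of the 2 muscles from their group means over narrow peaks correlated with r of −0.44 to 0.71 (median 0.243) and over 0.1 in 15 of 21 rats.

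Named peaks are the 6 with the highest mean CPM, the 4 largest differences each way between muscles and at soleus R1, the largest rise and fall in each other phase, and the 3 largest summit differences each way between the muscles. Those named for a change of level had to be called, with all rats in 1 direction or without overlap of the groups, and with a mean of 10 CPM in a group, and those named for the summit had to be called. Peaks named for the summit at R1 were chosen after their values were seen. The members and lists were chosen with earlier results of these data known. Alternatives were DESeq2, library totals, no filter, lane as a block, the replicate block, other minimums of tags, leaving out 1 library and, chosen after the data were seen, counts over peaks with 10 CPM outside the groups compared or in both muscles. Gene names, marker genes and sequences were not analysed here.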

Additional observations from a re-analysis of the deposited data

Results flagged for a closer look

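The change at R1 differed between soleus and EDL in 105 of 1337 narrow peaks (7.85%) by the interaction test over 42 libraries. Over all peaks tested it differed in 10.3%. Without U6 in both muscles the 105 became 30. Among the peaks named for the soleus R1 change, 4 were among the 105. The interaction was 11.73 on the log2 scale for chr13:50921094-50921134, a fitted value that is no bound on the fold because the soleus controls held no tag, and this peak is in the table through the soleus R1 libraries alone. It was −5.35 for chr10:53735474-53735554, −5.36 for chr10:53733440-53733526 and −4.85 for chr10:53731821-53731918, which fell in soleus while their EDL libraries overlapped between R1 and control.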

How the results depend on the processing

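The counts below are of narrow peaks called, and the cause of each move was not tested. DESeq2 called 17, 20, 16, 69 and 89 in soleus at D1, D3, D7, R3 and R7 and 26, 50, 16, 5 and 17 in EDL at D1, D3, D7, R1 and R3, and 133 in any phase of EDL. Library totals gave 1 in soleus at D7 and 6 in EDL at D1. With lane as a term, soleus counts were 3 at D1, 0 at D3, 2 at R1, 0 at R3 and R7 and 36 in any phase, and EDL counts 0 at D1, D3 and D7, and the R3 change of chr2:196094719-196094813 turned to 0.98 and the R7 change of chr10:53638398-53638488 to −1.64. The same 42-library fit without lane gave 17, 8 and 6 in soleus at D1, D3 and R3 and 82 in any phase of EDL. For the summit difference between the muscles, a limit of 5 points gave 77 peaks and 20 points none. The median summit difference was −1.35 with at least 50 tags, where it missed the test (permutation p = 0.059), and 0.64 over the 357 peaks with 20 tags in every library. Over peaks with 10 CPM outside the groups compared, an alternative chosen after the data were seen, soleus R1 had 214 calls, and over peaks with 10 CPM in both muscles 48 differed between the muscles. The filter changed none of these counts by over 1.5 times.

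Without 1 library, counts ran from 3 to 15 (D1), 0 to 3 (D3), 257 to 337 (R1), 0 to 35 (R3), 2 to 124 (R7) and 444 to 612 (any phase) in soleus and from 2 to 26 (D1), 0 to 172 (D3), 0 to 4 (D7), 0 to 13 (R3) and 32 to 139 (any phase) in EDL. Without 1 rat they ran from 199 to 240 between the muscles, 30 to 114 for the interaction and 20 to 41 for the summit between the muscles, and the summit at R1 from 11 to 46. The share of tags differed by 0.852 to 1.01 points and the median summit share by −1.12 to −0.906. The replicate block, which pairs the muscles of a rat, gave 218, 114 and 28 calls for the muscle difference, the interaction and the summit, and it changed no call of a named peak. Comparisons of phases are between different rats and have no pairing. Without the pairing the 2 shares had permutation p of 0.00091 and 0.00393. Of the 35 changes of named peaks, 29 were called. DESeq2 called all 29, library totals 26 and the fit with lane as a term 9, under which 18 kept their direction but not their call and the 2 above turned.

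Depth limits the summit shares, since 357 of the 1353 narrow peaks had 20 tags in every library, and weak peaks in EDL, where 151 were not tested.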
